A study of Homo sapiens with 23 samples.

Results

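The Notch genes described here are 9 genes of the Notch pathway: the receptors NOTCH1, NOTCH2 and NOTCH3, the ligands JAG1, JAG2, DLL1 and DLK2, and the transcriptional targets HES1 and HEY1. They were taken as the probes whose annotated gene symbol was one of these names, 17 of the 48803 probes on the array. A probe entered the tests if its signal lay above the negative controls (detection p under 0.05) on 5 or more arrays, which 10 of the 17 did. These stood for 8 of the 9 genes, out of 10954 genes tested in all. DLL1, a canonical Delta-type ligand, was not tested. Its 1 probe was above background on 1 of 23 arrays, with log2 signals between 4.50 and 5.19.

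In Notch signalling a ligand on one cell binds a receptor on its neighbour, and ADAM proteases and gamma-secretase then release the receptor's intracellular domain. In the nucleus this domain joins the DNA-binding protein RBPJ and a Mastermind coactivator and switches on targets such as the HES and HEY repressors. In mammary epithelium the pathway is known for its part in the choice between luminal and basal cell fates.

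The RNA came from MCF10A, an immortalised, non-tumorigenic human mammary epithelial line, and from 1 derivative that carries engineered ErbB2 and is labelled MCF10A/ErbB2* (ErbB2* below), each grown in 2D and in 3D. The groups were WT 2D (6 arrays), WT 3D (5), ErbB2* 2D (6) and ErbB2* 3D (6). The labels give neither the ErbB2* construct, its promoter or the number of clones, nor the 3D matrix or the time in culture, so an effect of ErbB2 cannot be told apart from another difference between the lines. Nothing says that replicates were separate cultures, and p-values then measure only how far these samples vary among themselves, possibly for technical reasons.

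WT 3D replicate 5 stood apart before any comparison. Its mean probe signal was 150.6 units against 333.6 to 581.6 on the other arrays, and 19.1% of its probes were above background against 30.9% to 34.6%. Its cell line field names ErbB2* while its title, source and description name WT cells in 3D. Over the genes tested its mean correlation was 0.820 with the other WT 3D arrays and 0.801 with the ErbB2* 3D arrays. Its scanner and deposited normalised values had a rank correlation of 0.503, against 1 on every other array. It was kept with WT 3D as titled, and results that rest on it are given with and without it.

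The cells were checked against markers. Of 9 epithelial markers 8 were tested, among them CDH1, EPCAM and KRT5 above background on every array, and KRT19 was not above background on any. Their sums ran from 19530 to 33330 units on the WT arrays and from 11190 to 22420 on the ErbB2* arrays. The 3 basal markers tested of 5 (KRT14, KRT15 and ITGB4) summed to 4241 to 5559 units in WT 2D, 4015 to 6265 in WT 3D, 1331 to 1667 in ErbB2* 2D and 2020 to 2711 in ErbB2* 3D. The 3 luminal markers tested of 6 (KRT8, KRT18 and GATA3, with ELF5 and ESR1 above background on 0 arrays) summed to 669.1 to 905.8, 476.4 to 946.4, 930.3 to 1387 and 901.5 to 1152 units in the same order. Fibroblast markers (4 of 7 tested, with DCN above background on all 23 arrays and COL3A1 on 0) summed to 3304 to 3531, 2616 to 2967, 5473 to 6021 and 9212 to 10750 units. Leukocyte markers (3 of 7 tested, with CD14 and CD68 above background on all 23 arrays, PTPRC on 1 and ITGAM on 0) summed to 854.5 to 1139, 1351 to 2627, 2188 to 2858 and 2004 to 2182 units. The 3 endothelial markers tested of 7 summed to at most 233.0 units on any array, and CDH5 and VWF were above background on 0 arrays. The fibroblast sum was mostly DCN, with means of 11.68, 11.35, 12.46 and 13.24 on the log2 scale. COL1A1 was lower in ErbB2* than in WT cells in 3D (-1.01, adjusted p = 0.0120) and PDGFRA did not pass (-0.13, adjusted p = 0.713). LUM was above background on 6 of 6 ErbB2* 3D arrays and on 0 arrays of each other group. It passed the detection filter only through ErbB2* 3D, so no test of it is given. The basal sums did not overlap between the lines, but the single markers differed. KRT14 was lower in ErbB2* cells in both cultures (-2.86 in 2D and -1.80 in 3D). KRT15 was lower in 3D (-3.95) and did not pass in 2D (0.29, adjusted p = 0.416). ITGB4 was lower in 2D (-0.78) and did not pass in 3D (-0.51, adjusted p = 0.103). Without WT 3D replicate 5 it passed there too (-0.77, adjusted p = 0.00144). The part of these markers in the Notch results was not tested.

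All values below are normalised log2 signals, so a difference of 1 is a doubling on the array's scale. A probe's level depends on the probe as well as the transcript, so levels are compared between groups and never between genes. Differences are fitted log2 differences with their standard errors (SE), and adjusted p-values are limma's, corrected over all 10954 genes with a threshold of 0.05. In RNA from whole cultures, fewer cells that express a gene and less of its RNA per cell cannot be told apart.

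**Figure D1:**
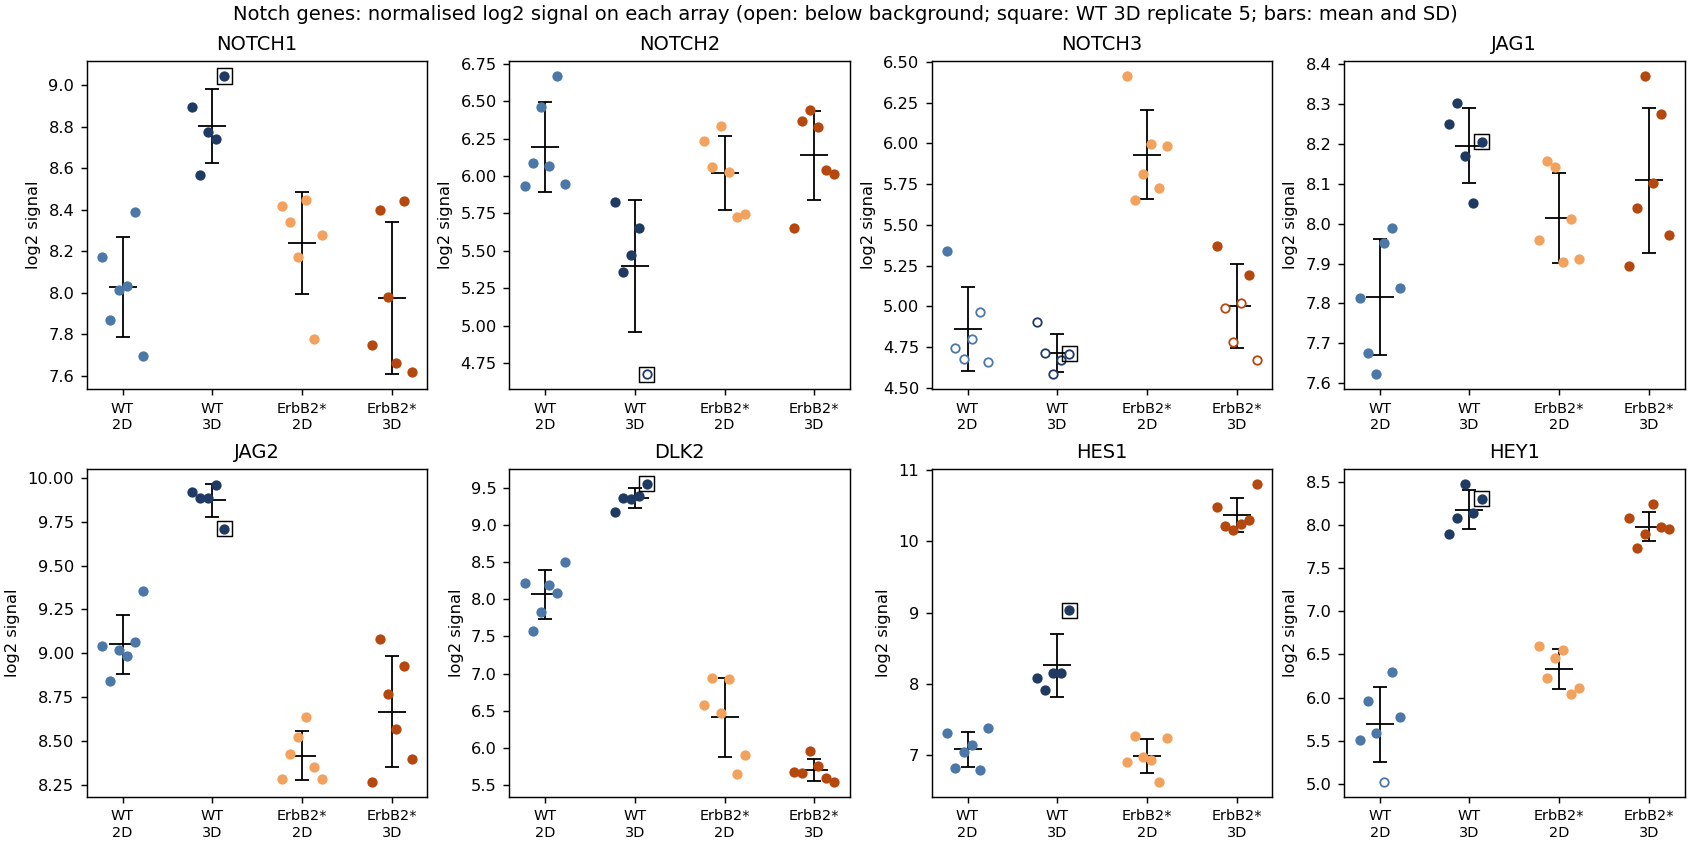
Normalised log2 signal (vertical axis, a different range in each panel) of the 8 Notch genes tested, by group on the horizontal axis, with 1 point per array and bars for the mean and SD. Open points are below background, and the square marks WT 3D replicate 5. DLK2 separates all WT arrays from all ErbB2* arrays, HES1 is highest on the 6 ErbB2* 3D arrays, and HEY1 is higher on all 3D than on all 2D arrays.

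The ligands came first. DLK2 encodes a non-canonical ligand, a membrane protein with EGF-like repeats but without the DSL domain through which canonical ligands bind their receptors. Its WT 3D arrays read 9.18, 9.36, 9.35, 9.40 and 9.56. The WT 2D arrays ran from 7.57 to 8.50 with a median of 8.13, and the ErbB2* arrays from 5.64 to 6.94 (median 6.52) in 2D and from 5.54 to 5.96 (median 5.67) in 3D. Every WT array therefore lay above every ErbB2* array, the WT 3D arrays lay above the WT 2D arrays, and only the ErbB2* ranges overlapped each other. The means fell in the order WT 3D (9.37 ± 0.14, SD, n = 5), WT 2D (8.07 ± 0.33, n = 6), ErbB2* 2D (6.41 ± 0.53, n = 6) and ErbB2* 3D (5.70 ± 0.15, n = 6).

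DLK2 was 3.16-fold lower in ErbB2* than in WT cells in 2D (-1.66 on the log2 scale, SE 0.19, adjusted p = 6.76e-07), and 12.8-fold lower in 3D (-3.67, SE 0.20, adjusted p = 1.73e-12). From 2D to 3D it rose 2.47-fold in WT cells (1.30, SE 0.20, adjusted p = 2.88e-05) and fell 1.64-fold in ErbB2* cells (-0.71, SE 0.19, adjusted p = 0.00764). The culture change thus ran in opposite directions in the lines, and the difference between the changes was -2.01 (SE 0.27, adjusted p = 1.32e-05). It was -1.98 without WT 3D replicate 5. This array read 9.56 for DLK2, the highest of all arrays, while the ErbB2* arrays reached at most 6.94, but only after normalisation. Its scanner signal was 162.1 units, against 663.9 to 819.5 on the other WT 3D arrays and 122.3 to 234.8 on the ErbB2* arrays. With the arrays scaled to a common median in place of quantile normalisation, the culture calls and the call of their difference were lost. The values were then 0.75 in WT cells (adjusted p = 0.171), -0.87 in ErbB2* cells (adjusted p = 0.136) and -1.62 for the difference (adjusted p = 0.0824). These calls stood when WT 3D replicate 5 was left out as well. 

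JAG2 encodes a canonical Serrate-type ligand. On its brighter probe the WT 3D arrays read 9.92, 9.89, 9.88, 9.96 and 9.71, above all other arrays. The lowest, median and highest values were 8.84, 9.03 and 9.36 in WT 2D, 8.28, 8.39 and 8.64 in ErbB2* 2D, and 8.27, 8.67 and 9.08 in ErbB2* 3D. ErbB2* 2D lay wholly below WT 2D, whereas ErbB2* 3D overlapped both 2D groups. In order of their means the groups were WT 3D (9.87 ± 0.10, SD, n = 5), WT 2D (9.05 ± 0.17, n = 6), ErbB2* 3D (8.67 ± 0.31, n = 6) and ErbB2* 2D (8.42 ± 0.14, n = 6).

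JAG2 was lower in ErbB2* than in WT cells, 1.55-fold in 2D (-0.64, SE 0.12, adjusted p = 6.83e-04) and 2.31-fold in 3D (-1.21, SE 0.13, adjusted p = 1.75e-07). It rose 1.77-fold from 2D to 3D in WT cells (0.82, SE 0.13, adjusted p = 4.18e-05). The change in ErbB2* cells was 0.25 (95% interval -0.0025 to 0.51, adjusted p = 0.158) and did not pass the test. The interaction, the culture change in ErbB2* cells minus that in WT cells, was -0.57 (SE 0.18, adjusted p = 0.0324). It lost its call when any of 10 single arrays was left out, with adjusted p-values from 0.0501 to 0.0607.

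A dimmer JAG2 probe was above background on 22 arrays, all but WT 3D replicate 5, where it read 4.57 against 8.20 to 8.64 on the other WT 3D arrays. With that array its differences were -1.14 in 2D, -0.34 in 3D and -0.14 from 2D to 3D in WT cells, and none passed the test over all passing probes. Without that array they were -1.15 (adjusted p = 1.27e-04), -1.12 (adjusted p = 4.88e-04) and 0.64 (adjusted p = 0.0313). On the same 22 arrays the dimmer probe rose by 0.67 in ErbB2* cells (adjusted p = 0.0116), and its interaction was 0.02 (adjusted p = 0.971) against -0.61 (adjusted p = 0.0207) on the brighter probe. Both probes thus read JAG2 lower in ErbB2* cells on 22 arrays, and they disagreed on whether the culture change differed between the lines. Their correlation over these arrays was 0.77.

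JAG1, the other Serrate-type ligand, varied least among the ligands. The WT 3D arrays read 8.25, 8.30, 8.17, 8.05 and 8.21, and the WT 2D arrays ran from 7.62 to 7.99 with a median of 7.83. ErbB2* arrays lay between 7.90 and 8.16 (median 7.99) in 2D and between 7.90 and 8.37 (median 8.07) in 3D. Only WT 2D and WT 3D did not overlap. The means were 8.20 ± 0.09 (SD, n = 5) in WT 3D, 8.11 ± 0.18 (n = 6) in ErbB2* 3D, 8.01 ± 0.11 (n = 6) in ErbB2* 2D and 7.82 ± 0.15 (n = 6) in WT 2D, in falling order.

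JAG1 rose 1.30-fold from 2D to 3D in WT cells (0.38, SE 0.10, adjusted p = 0.00599). When the arrays were scaled to a common median in place of quantile normalisation (median scaling), the value turned to -0.12 (adjusted p = 0.821). With WT 3D replicate 5 left out as well the value was 0.38, but the call was still lost (adjusted p = 0.0503). No other JAG1 comparison passed. ErbB2* cells differed from WT cells by 0.20 in 2D (95% interval 0.0029 to 0.40, adjusted p = 0.204) and by -0.09 in 3D (-0.29 to 0.12, adjusted p = 0.559). The culture change in ErbB2* cells was 0.09 (-0.10 to 0.29, adjusted p = 0.553), and the interaction was -0.29 (-0.57 to -0.0013, adjusted p = 0.178).

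Among the receptors, NOTCH1 stood out in WT 3D. These arrays read 8.89, 8.57, 8.77, 8.74 and 9.04, above every other array. The lowest, median and highest values were 7.70, 8.02 and 8.39 in WT 2D, 7.78, 8.31 and 8.45 in ErbB2* 2D, and 7.62, 7.87 and 8.44 in ErbB2* 3D. These 3 groups overlapped one another throughout. The order of the means was WT 3D (8.80 ± 0.18, SD, n = 5), ErbB2* 2D (8.24 ± 0.25, n = 6), WT 2D (8.03 ± 0.24, n = 6) and ErbB2* 3D (7.97 ± 0.37, n = 6).

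NOTCH1 rose 1.71-fold from 2D to 3D in WT cells (0.78, SE 0.16, adjusted p = 0.00103). The same change in ErbB2* cells was -0.27 (95% interval -0.59 to 0.059, adjusted p = 0.257), and the difference between the lines passed the test (-1.04, SE 0.23, adjusted p = 0.00257). NOTCH1 was 1.78-fold lower in ErbB2* than in WT cells in 3D (-0.83, SE 0.16, adjusted p = 6.09e-04). The lines differed in 2D by 0.21 (-0.11 to 0.54, adjusted p = 0.475). Under median scaling the NOTCH1 calls were lost for culture in WT cells (0.22, adjusted p = 0.690), the interaction (-0.66, adjusted p = 0.673) and 3D (-0.23, adjusted p = 0.644). They stood when WT 3D replicate 5 was left out as well.

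NOTCH2 went the other way. Its probe lay close to background, at 5.83, 5.36, 5.47, 5.66 and 4.67 in WT 3D, the last below background in replicate 5. WT 2D arrays ran from 5.93 to 6.67 (median 6.08), ErbB2* 2D arrays from 5.73 to 6.33 (median 6.05) and ErbB2* 3D arrays from 5.65 to 6.44 (median 6.19). WT 3D was lowest, lay wholly below WT 2D and overlapped both ErbB2* groups. The means were 6.20 ± 0.30 (SD, n = 6) in WT 2D, 6.14 ± 0.30 (n = 6) in ErbB2* 3D, 6.02 ± 0.25 (n = 6) in ErbB2* 2D and 5.40 ± 0.44 (n = 5) in WT 3D.

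NOTCH2 fell 1.74-fold from 2D to 3D in WT cells (-0.80, SE 0.19, adjusted p = 0.00314), and by 0.63 on the log2 scale without replicate 5 (adjusted p = 0.00628). It was 1.67-fold higher in ErbB2* than in WT cells in 3D (0.74, SE 0.19, adjusted p = 0.00664), or 0.57 without that array (adjusted p = 0.0140). The interaction was 0.92 (SE 0.26, adjusted p = 0.0209). With the authors' deposited values, in which WT 3D replicate 5 departs from its scanner signals, the 3D difference (0.12, adjusted p = 0.0600) and the interaction (0.18, adjusted p = 0.0596) missed the threshold. The interaction call was also lost under median scaling (0.80, adjusted p = 0.222), and again with WT 3D replicate 5 left out besides (0.65, adjusted p = 0.0680). ErbB2* cells differed from WT cells by -0.17 in 2D (95% interval -0.55 to 0.21, adjusted p = 0.663), and changed by 0.12 from 2D to 3D (-0.26 to 0.50, adjusted p = 0.730).

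NOTCH3 was above background on all 6 ErbB2* 2D arrays, on 2 of 6 ErbB2* 3D arrays, on 1 of 6 WT 2D arrays and on 0 of 5 WT 3D arrays. It passed the detection filter only through ErbB2* 2D, so this group had to differ from the others. ErbB2* 2D arrays read 5.65 to 6.41 with a median of 5.90, above all others. ErbB2* 3D arrays read 4.67 to 5.37 (median 5.01), WT 2D arrays 4.66 to 5.34 (median 4.77), and WT 3D arrays 4.90, 4.71, 4.58, 4.67 and 4.71. The last 3 groups overlapped. In falling order the means were 5.93 ± 0.27 (SD, n = 6) in ErbB2* 2D, 5.00 ± 0.26 (n = 6) in ErbB2* 3D, 4.86 ± 0.26 (n = 6) in WT 2D and 4.72 ± 0.12 (n = 5) in WT 3D.

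Because of the filter the NOTCH3 differences that involve ErbB2* 2D are a description only, with neither a fold nor a test given. The fitted difference between the lines in 2D was 1.07 on the log2 scale, against a WT 2D group in which 1 of 6 arrays measured the gene. The 3D mean in ErbB2* cells, where 2 of 6 arrays measured it, lay 0.93 below the 2D mean on the same scale, and the fitted interaction was -0.78. ErbB2* cells differed from WT cells by 0.29 in 3D (95% interval -0.018 to 0.59, adjusted p = 0.170), with the gene below background on every WT 3D array.

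**Figure D2:**
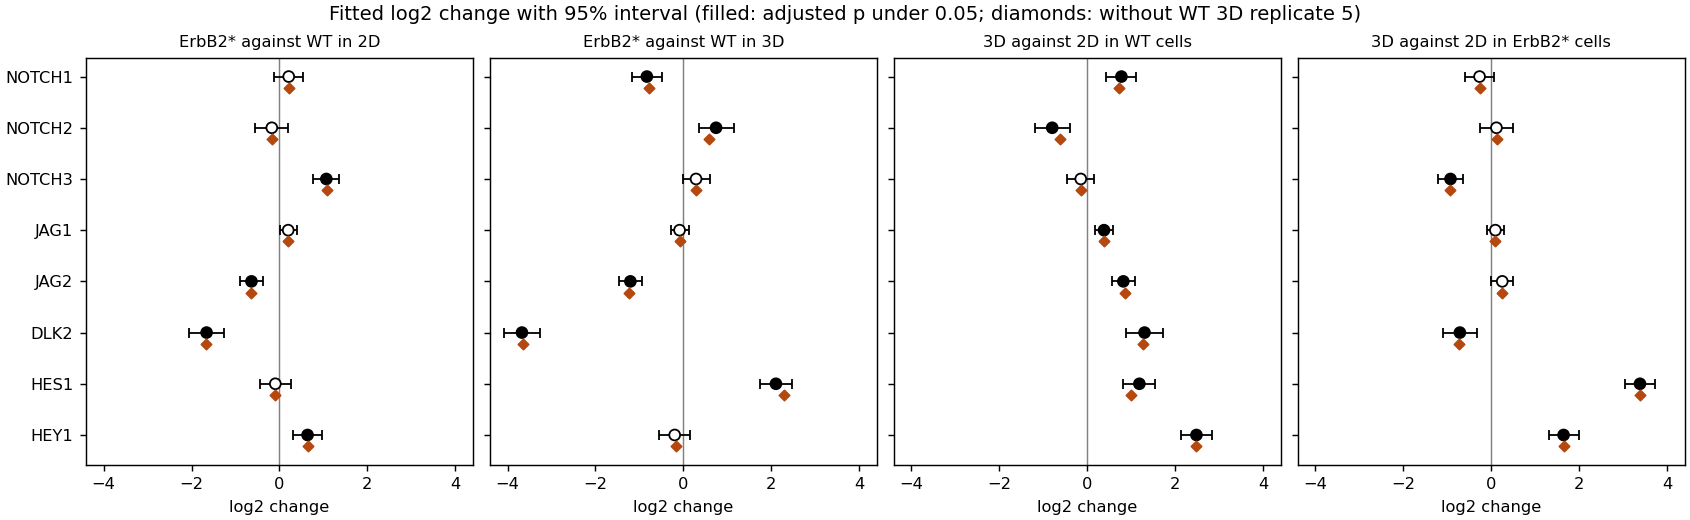
Fitted log2 change (horizontal axis) of each Notch gene in 4 comparisons, 1 per panel, with its 95% interval. Filled points passed the adjusted p threshold, open points did not, and diamonds give the change without WT 3D replicate 5. NOTCH3 points that involve ErbB2* 2D are a description only, although filled, because of the detection filter. HES1 rose 10.4-fold from 2D to 3D in ErbB2* cells, and DLK2 was 12.8-fold lower in ErbB2* cells in 3D. The JAG1 rise in WT cells lost its call under median scaling, at -0.12, or at 0.38 with WT 3D replicate 5 left out besides.

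The targets responded to culture in both lines. HES1 encodes a basic helix-loop-helix repressor that is the best known direct target of Notch receptors. The WT 3D arrays read 8.08, 7.91, 8.15, 8.16 and 9.04, the last being replicate 5. The lowest, median and highest values were 10.16, 10.28 and 10.81 in ErbB2* 3D, 6.79, 7.09 and 7.38 in WT 2D, and 6.62, 6.95 and 7.26 in ErbB2* 2D. Every ErbB2* 3D array lay above every WT 3D array, and these above all 2D arrays, among which the lines overlapped. The means fell in the order ErbB2* 3D (10.37 ± 0.24, SD, n = 6), WT 3D (8.26 ± 0.44, n = 5, or 8.07 over the other 4), WT 2D (7.08 ± 0.25, n = 6) and ErbB2* 2D (6.99 ± 0.24, n = 6).

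HES1 rose 10.4-fold from 2D to 3D in ErbB2* cells (3.39, SE 0.17, adjusted p = 4.84e-13). In WT cells it rose 2.27-fold (1.19, SE 0.18, adjusted p = 2.25e-05), or by 1.00 on the log2 scale without replicate 5. The difference between these changes was 2.20 (SE 0.24, adjusted p = 7.44e-07). In 3D HES1 was 4.31-fold higher in ErbB2* than in WT cells (2.11, SE 0.18, adjusted p = 3.38e-09). The lines differed in 2D by -0.09 (95% interval -0.44 to 0.26, adjusted p = 0.832).

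The bases before the HES1 start site are shown because RBPJ is known to act there. They are from RefSeq (GRCh38.p14), which held promoters of 7 of the 9 genes, and capitals mark the letters TGGGAA of the RBPJ core. The HES1 stretch is chr3:194135898-194136147 on the + strand. The stretches before DLK2 (chr6:43455549-43455798, - strand) and JAG2 (chr14:105168777-105169026, - strand) stand beside it as the ligand genes that were lower in ErbB2* cells in both cultures.
HES1: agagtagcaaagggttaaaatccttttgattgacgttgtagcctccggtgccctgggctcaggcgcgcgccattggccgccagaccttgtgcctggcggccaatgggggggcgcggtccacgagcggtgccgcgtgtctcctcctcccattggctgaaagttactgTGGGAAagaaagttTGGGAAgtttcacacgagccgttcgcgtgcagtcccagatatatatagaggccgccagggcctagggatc
DLK2: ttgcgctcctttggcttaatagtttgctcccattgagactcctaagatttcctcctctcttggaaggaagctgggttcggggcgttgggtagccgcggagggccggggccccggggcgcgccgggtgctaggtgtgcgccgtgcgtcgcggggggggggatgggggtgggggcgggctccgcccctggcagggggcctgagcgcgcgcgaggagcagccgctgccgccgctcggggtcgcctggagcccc
JAG2: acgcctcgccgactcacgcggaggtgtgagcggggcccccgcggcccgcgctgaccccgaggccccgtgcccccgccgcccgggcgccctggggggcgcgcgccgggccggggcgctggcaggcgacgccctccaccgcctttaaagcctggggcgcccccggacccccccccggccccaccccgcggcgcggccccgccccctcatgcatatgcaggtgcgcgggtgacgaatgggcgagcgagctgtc

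Motifs were searched on both strands from 250 bases before to 50 bases after each start site. The HES1 window held TGGGAA at 2 places, from bases -84 to -79 and from -70 to -65 before the start, and the first was also a match to the longer GTGGGAA that contains it. Of 35116 RefSeq promoters of this length 24.03% held TGGGAA, 3.796% held it at 2 or more places and 6.248% held GTGGGAA. The windows of DLK2, JAG2, JAG1, NOTCH1, NOTCH2 and NOTCH3 held neither. HES and HEY proteins are known to bind the N-box CACNAG and the E-box CACGTG. HES1, NOTCH1, NOTCH2 and NOTCH3 held CACNAG, as did 38.03% of all promoters, and HES1 held it at 4 places. CACGTG was in 0 of the 7 windows and in 7.256% of all promoters. These matches describe letters only.

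HEY1 encodes a related repressor of the Hairy and Enhancer-of-split family. Its WT 3D arrays read 7.89, 8.08, 8.48, 8.14 and 8.30. ErbB2* 3D arrays ran from 7.74 to 8.24 (median 7.97), ErbB2* 2D arrays from 6.05 to 6.60 (median 6.34) and WT 2D arrays from 5.03 to 6.30 (median 5.68), with 1 WT 2D array below background. All 11 arrays of 3D cultures lay above all 12 of 2D cultures, and the lines overlapped within each culture. The means were 8.18 ± 0.22 (SD, n = 5) in WT 3D, 7.98 ± 0.17 (n = 6) in ErbB2* 3D, 6.33 ± 0.24 (n = 6) in ErbB2* 2D and 5.69 ± 0.43 (n = 6) in WT 2D.

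HEY1 rose 5.59-fold from 2D to 3D in WT cells (2.48, SE 0.17, adjusted p = 1.68e-10) and 3.13-fold in ErbB2* cells (1.65, SE 0.16, adjusted p = 6.64e-08). The rise was smaller in ErbB2* cells (interaction -0.84, SE 0.24, adjusted p = 0.0190). HEY1 was 1.56-fold higher in ErbB2* than in WT cells in 2D (0.64, SE 0.16, adjusted p = 0.00905), although the groups overlapped. That call was lost with the same deposited values (0.16, adjusted p = 0.0542) and with the mean over both HEY1 probes (0.36, adjusted p = 0.0628). In 3D the lines differed by -0.20 (95% interval -0.55 to 0.16, adjusted p = 0.427). HES1 and HEY1 thus both rose with 3D culture in both lines, and their interactions had opposite signs. Under median scaling the HES1 rise in WT cells (0.61, adjusted p = 0.156) and the HEY1 interaction (-0.43, adjusted p = 0.812) lost their calls. Both calls stood when WT 3D replicate 5 was left out as well.

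A dimmer HEY1 probe was above background on 8 arrays, 3 of 5 in WT 3D, 4 of 6 in ErbB2* 3D, 1 of 6 in ErbB2* 2D and 0 of 6 in WT 2D. Without the 3D arrays it would not have passed the filter, so its differences from 2D to 3D are a description only. The fitted values were 0.83 in WT cells and 0.53 in ErbB2* cells on the log2 scale, with no test given. Its differences between the lines and its interaction did not pass on all 23 arrays, and the probes correlated at 0.66 over 22 arrays. Probes of DLK2 (3), NOTCH2 (2) and JAG2 (1) that failed the filter were above background on at most 4 arrays each.

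**Figure D3:**
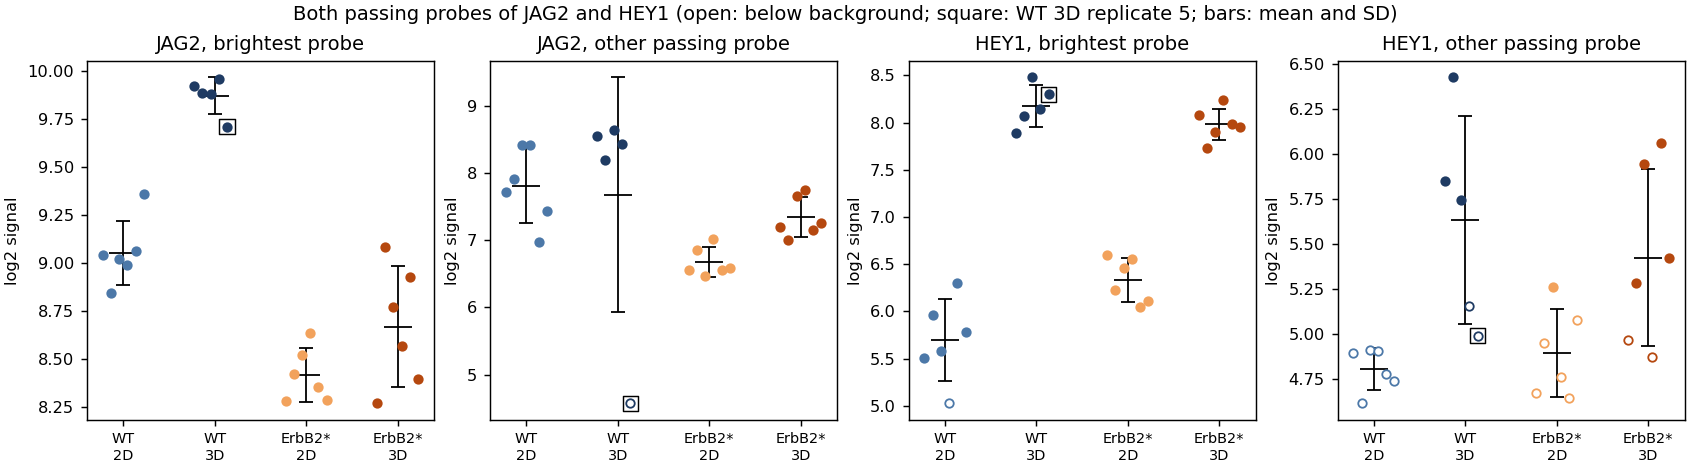
Normalised log2 signal (vertical axis, a different range in each panel) on both passing probes of JAG2 and of HEY1, by group, with 1 point per array, bars for the mean and SD, open points below background and a square for WT 3D replicate 5. The dimmer JAG2 probe reads 4.57 on that array, and the dimmer HEY1 probe is below background on all 6 WT 2D arrays.

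The first comparison asked how the lines differed in 2D. HEY1 was higher in ErbB2* cells, and JAG2 and DLK2 were lower, while NOTCH1, NOTCH2, JAG1 and HES1 did not pass the test. NOTCH3, which the filter let pass only through ErbB2* 2D, is left out of this reading. Of the other 7 genes 1 was called higher, against 7.78% of all genes, and 2 were called lower, against 5.33%. Counted with NOTCH3, 2 of 8 were called higher. The median difference was 0.05 over the 8 genes, NOTCH3 included, and 0.01 over all genes. Under median scaling the calls of JAG2 and HEY1 were lost, and 2 were left, NOTCH3 included. Without WT 3D replicate 5 the same numbers of Notch genes were called in each direction, in this and in the other 4 comparisons, while the shares of all genes rose. They were then 12.8% higher and 10.5% lower between the lines in 2D, 13.7% and 14% in 3D, 17.1% and 16.6% for culture in WT cells, 17.1% and 19.2% in ErbB2* cells, and 9.75% and 11.7% for the interaction.

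Among 51 other pathway genes tested, 2 were higher and 6 lower in ErbB2* cells in 2D, against 7.78% and 5.33% of all genes, with a median of -0.05. Without WT 3D replicate 5 the counts were 6 and 7. The receptor IL7R, a known Notch target in T cells, was higher in ErbB2* cells (1.15, SE 0.22, adjusted p = 6.98e-04). HES2, a HES family gene, was lower (-1.34, SE 0.26, adjusted p = 6.47e-04), as were ID3, an inhibitor of basic helix-loop-helix factors (-1.13, SE 0.34, adjusted p = 0.0260), and the transcription factor SOX9 (-1.03, SE 0.18, adjusted p = 2.48e-04).

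The second comparison asked how the lines differed in 3D. NOTCH2 and HES1 were higher in ErbB2* cells, 2 of 8 against 11.6% of all genes. NOTCH1, JAG2 and DLK2 were lower, 3 of 8 against 10.7%. NOTCH3, JAG1 and HEY1 did not pass. The median difference was -0.14 over the 8 genes and 0.04 over all genes. Under median scaling NOTCH2, DLK2 and HES1 kept their calls, and those of NOTCH1 (-0.23, adjusted p = 0.644) and JAG2 (-0.60, adjusted p = 0.266) were lost.

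Of the 51 other pathway genes 10 were higher and 4 lower in ErbB2* cells in 3D (9 and 5 without WT 3D replicate 5), with a median of 0.28. The shares of all genes were 11.6% and 10.7%. The largest difference was SOX9, at 2.21 (SE 0.19, adjusted p = 4.42e-09), above background on 3 of 5 WT 3D arrays. CCN3, a secreted protein known to bind Notch receptors, was higher by 1.99 (SE 0.12, adjusted p = 9.25e-12). IL7R was higher by 1.69 (adjusted p = 7.70e-06) and was above background on 1 of 5 WT 3D arrays. The repressor BHLHE40 was higher by 1.51 (adjusted p = 4.36e-10). HES2 differed by -1.80 (adjusted p = 2.41e-05), and TLE4, a Groucho-type corepressor that HES proteins are known to recruit, by -1.13 (adjusted p = 1.88e-07). For HES2 the WT 3D arrays ran from 6.77 to 8.78, with a median of 7.05.

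From 2D to 3D in WT cells most Notch genes moved. NOTCH1, JAG1, JAG2, DLK2, HES1 and HEY1 rose, 6 of 8 against 14.3% of all genes, and NOTCH2 fell, 1 of 8 against 15.3%. NOTCH3, below background on 10 of 11 of these arrays, did not pass. The median change was 0.80 over the 8 genes and -0.06 over all genes. Under median scaling 2 calls were left, NOTCH2 (-0.81) and HEY1 (1.93), whereas median scaling without WT 3D replicate 5 left 6, with that of JAG1 lost.

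Of the 51 other pathway genes 9 rose and 7 fell in WT cells (11 and 7 without WT 3D replicate 5), with a median of -0.18. Over all genes 14.3% rose and 15.3% fell. ID2 rose by 4.08 (SE 0.20, adjusted p = 3.41e-13), and ID3, a close relative, rose by 2.75 (SE 0.35, adjusted p = 2.66e-06). For ID3 the WT 3D arrays ran from 10.12 to 13.16, with a median of 12.99. LFNG, a Fringe glycosyltransferase that modifies Notch receptors, rose by 2.60 (SE 0.12, adjusted p = 7.51e-14), and TLE4 by 1.26 (adjusted p = 3.71e-08). Of the 15 other targets tested 3 rose and 7 fell, among the latter SOX9, which fell by 1.52 (adjusted p = 1.89e-06). HES7, a HES gene of the segmentation clock, fell at least 1.94-fold to below background on all 5 WT 3D arrays (fitted change -1.63, adjusted p = 1.39e-05).

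The same culture change in ErbB2* cells gave fewer Notch calls. HES1 and HEY1 rose, and DLK2 was called lower. NOTCH3, which the filter let pass only through the 2D arrays of this comparison, is again left out of this reading. Of the other 7 genes 2 were called higher, against 10.3% of all genes, and 1 was called lower, against 12.1%. Counted with NOTCH3, 2 of 8 were called lower. NOTCH1, NOTCH2, JAG1 and JAG2 did not pass. The median change was 0.11 over the 8 genes, NOTCH3 included, and -0.02 over all genes. Under median scaling the DLK2 call was lost (-0.87, adjusted p = 0.136). The comparisons within WT and within ErbB2* cells share no arrays, but each shares arrays with the comparisons between the lines.

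Other pathway genes rose in 12 and fell in 4 of 51 cases in ErbB2* cells (15 and 6 without WT 3D replicate 5), with a median of 0.16. Over all genes 10.3% rose and 12.1% fell. ID3 rose by 4.30 (SE 0.34, adjusted p = 1.20e-09) and ID2 by 3.63 (SE 0.19, adjusted p = 1.04e-12). LFNG rose by 2.04 (SE 0.11, adjusted p = 2.37e-12), SOX9 by 1.73 (adjusted p = 1.38e-07) and CCN3 by 1.23 (adjusted p = 1.52e-08). HES7 fell by 1.42 (adjusted p = 4.45e-05), and 4 of 6 ErbB2* 3D arrays measured it. Of the 15 other targets 8 rose and 3 fell. SOX9 thus fell with 3D culture in WT cells and rose in ErbB2* cells.

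The interaction asked whether culture changed a gene differently in the lines. NOTCH3 is left out of this reading too, since the filter let it pass only through ErbB2* 2D. The interaction was called for NOTCH2 and HES1 in the positive direction, 2 of 7 against 6.73% of all genes. NOTCH1, JAG2, DLK2 and HEY1 were called in the negative direction, 4 of 7 against 8.33%, and JAG1 did not pass. Counted with NOTCH3, 5 of 8 were negative. The median was -0.67 over the 8 genes, NOTCH3 included, and 0.02 over all genes. Under median scaling HES1 alone kept its call (2.63, adjusted p = 6.26e-05). Median scaling without WT 3D replicate 5 left 6, NOTCH3 included, with the call of NOTCH2 lost.

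Over the 51 other pathway genes the interaction was called positive in 10 and negative in 2 (13 and 5 without WT 3D replicate 5), with a median of 0.31. The shares of all genes were 6.73% and 8.33%. SOX9 had the largest value (3.24, SE 0.26, adjusted p = 6.19e-09), followed by FURIN, the protease that matures Notch receptors (1.63, SE 0.54, adjusted p = 0.0440). Without WT 3D replicate 5, where FURIN read 4.82 against a WT 3D median of 7.34, its value was 1.09 (adjusted p = 0.0202), below those of CCN3 and BHLHE40. ID3 differed by 1.55 (adjusted p = 0.0332), or by 0.97 without WT 3D replicate 5 (adjusted p = 5.21e-05). CCN3 differed by 1.41 (adjusted p = 1.25e-06), BHLHE40 by 1.40 (adjusted p = 7.44e-07) and TLE4 by -1.05 (adjusted p = 1.11e-04). Of the 15 other targets tested 7 were called, all positive, against 6.73% of all genes, with a median of 0.62.

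**Figure D4:**
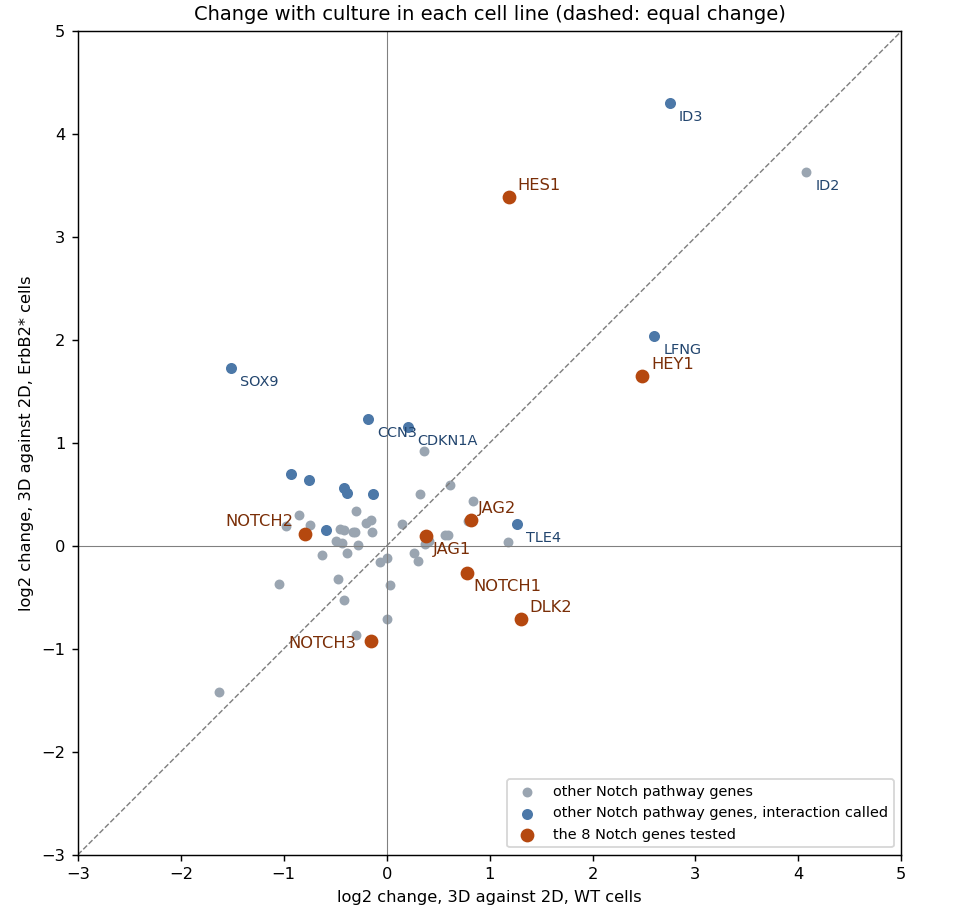
Log2 change from 2D to 3D in WT cells (horizontal axis) against that in ErbB2* cells (vertical axis), with 1 point per gene for the 8 Notch genes tested and 51 other pathway genes, blue where the interaction was called; on the dashed line both lines change equally. HES1 and SOX9 lie far above the line and DLK2 below it. JAG1, close to the line, turned to -0.12 in WT cells and to -0.060 in ErbB2* cells under median scaling, and was 0.38 and -0.060 with WT 3D replicate 5 left out besides.

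Of the 77 other pathway genes listed, 70 were named on the array and 51 were tested. Those not tested included NOTCH4, the ligands DLL4 and DLK1, the coactivators MAML2 and MAML3, and the targets HES5, HEY2 and HEYL. RBPJ and MAML1, the core of the nuclear complex, were tested and did not pass in any of the 5 comparisons. Without WT 3D replicate 5 RBPJ was called lower in 3D than in 2D in ErbB2* cells (-0.37, adjusted p = 0.0190).

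The Notch genes were also set beside one another over the 22 arrays without WT 3D replicate 5, as a description only. These arrays fall into 4 groups, so differences between the groups enter the correlations, by a share that was not tested. DLK2 and JAG2 were the closest pair (r = 0.85), then HES1 and HEY1 (r = 0.75) and JAG1 and HEY1 (r = 0.64). JAG2 and NOTCH3 ran most strongly against each other (r = -0.66). HES1 and DLK2 had r = -0.46.

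Among the other 10953 genes, the 3 most like each Notch gene were taken by r over the same 22 arrays. HES1 was closest to H2AC6 (0.98), TRIB1 (0.97) and IL1B (0.97), and HEY1 to CYP4F11 (0.97), PDK4 (0.96) and SMAD6 (0.96). DLK2 was closest to F12 (0.97), OVOL2 (0.97) and CDH1 (0.96), and JAG2 to P3H2 (0.95), SDC1 (0.94) and FBLN1 (0.94). NOTCH3 was closest to GPR37 (0.90), DBNDD1 (0.90) and FGL1 (0.90). The likeness was weaker for NOTCH1, led by CTDSP2 (0.86), for JAG1, led by TMEM131 (0.82), and for NOTCH2, led by FAF2 (0.73).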

How the data were processed

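RNA levels were read on 23 one-colour Illumina arrays of beads in 4 groups taken from the titles. The authors deposited average bead intensities and detection p-values per probe, per the file headers, not normalised between arrays, and a table of normalised values read as log2, with no method stated in the sources used here. Background was corrected and signals were quantile normalised and taken to log2 with neqc of limma 3.58.1 in R 4.3.3 (offset 16). Of 48803 probes 28098 had 1 gene symbol in the platform annotation. Each gene was tested on its brightest passing probe in a means model of all arrays (lmFit, contrasts.fit, eBayes, 19 residual degrees of freedom), two-sided, with Benjamini-Hochberg adjustment.

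The Notch genes and lists were chosen with earlier results of these data known. All Notch genes are named; other pathway genes are named where they passed with an absolute log2 change of at least 1, at most 6 a comparison; RBPJ and MAML1 were added after their values were seen. Same-numbered replicates deviated together (correlation over 0.1) in 4 of 5 pairs for culture in WT cells (-0.12 to 0.18) and in at most 1 pair elsewhere, and not in every pair of any comparison, so no pairing was used. The fit was tested on simulated data. Promoters were searched in Python 3.11.15. The number of arrays limits the precision.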

Additional observations from a re-analysis of the deposited data

Results flagged for a closer look

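The change between the lines differed between 3D and 2D, by the interaction test, for 7 of the 8 Notch genes tested, NOTCH3 counted. Of all genes 6.73% were called positive and 8.33% negative. The values were 2.20 for HES1, 0.92 for NOTCH2, -0.57 for JAG2, -0.84 for HEY1, -1.04 for NOTCH1 and -2.01 for DLK2 on the log2 scale. NOTCH3 (-0.78) had passed the detection filter only through ErbB2* 2D, so its value is a description only. The JAG2 call was lost when some single arrays were left out. On the dimmer JAG2 probe the value was 0.02 without WT 3D replicate 5. HES1 on WT 3D replicate 5 read 9.04, apart from the 7.91 to 8.16 of the other WT 3D arrays and below the 10.16 to 10.81 of the ErbB2* 3D arrays. Its gap to the nearest array was 0.78 of the group's range, past Dixon's critical value of 0.71 for 5 arrays. Chance flags about 1 in 20 groups. Before normalisation WT 3D replicate 5 read 135.3 units for HES1, the lowest of all arrays, against 327.0 to 375.3 on the other WT 3D arrays. That array had the lowest mean signal of all arrays (150.6 units) and labels that conflict, and the part of either in its HES1 value was not tested.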

How the results depend on the processing

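Array number and signal over background limit these values: NOTCH2, NOTCH3 and the dimmer HEY1 probe lie near background, and WT 3D replicate 5 had 9329 probes above it against at least 15084 elsewhere. Of 962 repeats of called Notch values 925 kept direction and call, 35 lost the call and 2 reversed; of 465 repeats of values not called, 453 kept both, 3 gained a call and 9 reversed. Leaving out each array in turn gave 4 to 4 Notch genes called between the lines in 2D, 5 to 5 in 3D, 7 to 7 for culture in WT cells, 4 to 4 in ErbB2* cells and 6 to 7 for the interaction. NOTCH3 was kept among the 8 genes in these counts and in those under median scaling.

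Median scaling moved the median of all genes to 0.20, 0.40, -0.34, -0.14 and 0.19 in the 5 comparisons. It left 2 of 4 Notch calls in 2D, 3 of 5 in 3D, 2 of 7 for culture in WT cells and 1 of 7 for the interaction. It reversed HES1 in 2D (0.10), JAG1 (0.47) and HEY1 (0.35) in 3D, JAG1 in WT cells (-0.12), NOTCH2 (-0.012) and JAG1 (-0.060) in ErbB2* cells and the JAG1 interaction (0.059). Median scaling without WT 3D replicate 5, chosen after seeing the data, again reversed HES1 in 2D (0.10), and NOTCH2 (-0.012) and JAG1 (-0.060) in ErbB2* cells; it called 5, 5, 6, 5 and 6 Notch genes, with JAG1 in 2D (0.41, adjusted p = 0.0162) and NOTCH1 in ErbB2* cells (-0.44, adjusted p = 0.0499) gained. The mean over passing probes turned the JAG2 interaction to 0.11. The cause was not tested for any of these.

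Over all genes the calls were 1436 in 2D (852 higher, 584 lower), 2441 in 3D (1267 and 1174), 3246 in WT cells (1571 and 1675), 2454 in ErbB2* cells (1133 and 1321) and 1649 for the interaction (737 and 912). Median scaling gave 634 (483 and 151), 1282 (1141 and 141), 1267 (202 and 1065), 902 (317 and 585) and 330 (248 and 82). Without WT 3D replicate 5 the 2D count was 2542 and the ErbB2* count 3970; with median scaling besides, the 2D count was 3173 (2688 and 485), and the splits were 1228 and 813, 1456 and 1218, 923 and 2559, and 522 and 1403 in the others. Deposited values gave 2736, 4088 and 2752 in 2D, ErbB2* cells and the interaction, and array weights 2373, 4178 and 2570. Fitting only the groups compared, which gives no interaction, changed the counts to 2203, 1545, 1797 and 3987.

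The replicate number as a block, which paired no samples by the labels, added NOTCH3 in 3D (0.32, adjusted p = 0.0424), took away the JAG2 interaction (-0.56, adjusted p = 0.0660) and changed no other Notch call. The JAG2 interaction was also lost without WT 2D replicates 2, 3 or 4, WT 3D replicates 1 or 4, ErbB2* 2D replicates 3 or 4, or ErbB2* 3D replicates 1, 4 or 6, with values from -0.49 to -0.56.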
